A study of Gallus gallus with 25 samples.

Results

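The change in the difference between male and female chicken gonads from embryonic day (E) 5.5 to E9.5 was measured for microRNAs (miRNAs) on 14 of the 25 one-colour arrays of the series. These are the arrays of chip 4011845 in Male E5.5 (3 arrays), Female E5.5 (3), Male E9.5 (4) and Female E9.5 (4). Each array received the small RNA fraction of gonads pooled by sex from Gallus gallus embryos, with no treatment in any group. E5.5 embryos were sexed by PCR on limb tissue and E9.5 embryos by the asymmetric shape of the female gonads, per the labels' protocols. The pools hold whole gonads, so fewer cells of a type and less miRNA per cell cannot be told apart. The array holds 657 perfect-match probes for mature miRNAs, and 152 of them were tested, 44 of these named for chicken miRNAs (gga). The others are named for zebrafish (dre), human (hsa), mouse (mmu) or rat (rno) miRNAs, or are the array maker's chicken candidates, and measure whatever chicken RNA binds them.

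In birds the male has 2 Z chromosomes and the female a Z and a W, and the early gonad looks alike in both sexes before it becomes a testis or, on the left side, an ovary. A miRNA is a short RNA that pairs with messenger RNAs, mainly through its seed near the 5′ end, and lowers the protein made from them. Here the sex gap is the mean male minus the mean female log2 intensity at a stage, and the change is the gap at E9.5 minus the gap at E5.5. A positive change is a shift toward males. A gap opens where both stages have the same sign and E9.5 is the larger in size, closes where E5.5 is the larger, and turns where the signs are opposite.

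The RNA to which each of the following probes is complementary is given because the results turn on these probes, with the seed (bases 2 to 8 from the 5′ end) in capitals. Each was obtained by reverse complement of the probe sequence in the deposited scanner files. The first 3 lines are miR-20b probes that differ by 1 base or in length, and the next 3 are miR-26 probes.
gga-miR-20b: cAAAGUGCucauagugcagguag
dre-miR-20b: cAAAGUGCucacagugcagguag
rno-miR-20b: cAAAGUGCucauagugcaggu
gga-miR-26a: uUCAAGUAauccaggauaggc
dre-miR-26a: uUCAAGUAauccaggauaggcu
dre-miR-26b: uUCAAGUAauccaggauagguu

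The next lines are the miRNAs of the gonad, mesenchyme and miR-22 comparisons, followed by 2 pairs that differ by 1 base.
gga-miR-202: aGAGGCAUagagcaugggaaaa
dre-miR-202: aGAGGCAUagggcaugggaaaa
gga-miR-199a: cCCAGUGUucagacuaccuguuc
dre-miR-199*: uACAGUAGucugcacauugguu
dre-miR-214: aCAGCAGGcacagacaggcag
hsa-miR-22: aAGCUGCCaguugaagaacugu
dre-miR-22a: aAGCUGCCagcugaagaacugu
gga-miR-18a: uAAGGUGCaucuagugcagaua
gga-miR-18b: uAAGGUGCaucuagugcaguua
gga-miR-222a: aGCUACAUcuggcuacugggucuc
gga-miR-222b: aACUACAUcuggcuacugggucuc

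The number of mature probes brighter than the negative controls ran from 51 on Male E5.5 replicate 2 to 177 on Female E9.5 replicate 1-1. The Male E5.5 arrays were the least alike: replicates 2 and 3 correlated at r = 0.469 over the tested probes, against 0.861 to 0.934 among the Female E5.5 arrays. The median SD of a probe was 0.459 in Male E5.5, 0.251 in Female E5.5, 0.291 in Male E9.5 and 0.307 in Female E9.5. At E5.5 no male array shared an array number (1 to 4, per the file headers) with a female array. This number and sex cannot be told apart there. The Male E5.5 arrays had numbers 1 and 2, which at E9.5 occur only on Female replicate 1-2 and Male replicate 1-2, respectively. In a fit with the array number as a block, the E5.5 gap therefore rests on these single E9.5 arrays. The defining probes of muscle (15) and liver (2) were above the negative controls on no array. The gonad miRNA miR-202 was above them on 1 to 4 of its 5 probes in Male E5.5, on 0 to 2 in Female E5.5, on 2 in Male E9.5 and on 0 to 2 in Female E9.5. The labels do not say whether arrays numbered 1-1 and 1-2 of a group came from separate pools, so a p-value covers the spread among arrays only, which may in part be technical.

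No probe passed the test for a change in its sex gap. The share of tested probes called at a limma adjusted p under 0.05 was 0%, or 0 of 152, and the lowest adjusted p was 0.927. At an unadjusted limma p under 0.05 there were 6 probes, which is 3.95% of those tested, where 7.6 would pass by that threshold alone. With the replicate number as a block there were 12, again with 0 called. In that block, here and below, Male E5.5 replicate 6 and Female E5.5 replicates 5 and 4 add nothing to the change. Their numbers occur on no other array, so Female E5.5 rests on replicate 3 alone. The median standard error of a change was 0.41 on the log2 scale, and the 95% interval lay within 1 log2 unit of 0 for 46 of the 152 probes. For every other tested probe the interval reached beyond 1 log2 unit in at least 1 direction. Standard errors and intervals, here and below, rest on a single variance per probe, taken as equal in every group. Where the Male E5.5 arrays spread more than the others, the E5.5 gap is less precise than its standard error shows. The fitted changes ranged from -1.67 for dre-miR-20b to 2.01 for hsa-miR-494, with a median of 0.06.

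The gap opened for 46 probes, closed for 46 and turned for 60. Of the opening gaps, 15 opened toward males and 31 toward females. Of the turning gaps, 41 turned toward males and 19 toward females. Opened, closed and turned describe fitted means here and below, not changes that passed a test: no turning probe had both gaps outside their 95% intervals, and a single gap was outside its interval for 3 probes at E5.5 and 12 at E9.5. The median size of a gap was 0.220 at E5.5 and 0.237 at E9.5, against median standard errors of 0.310 and 0.268. Across the 152 probes the gaps at the 2 stages correlated at r = 0.085, over points that share the arrays of each stage.

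**Figure D1:**
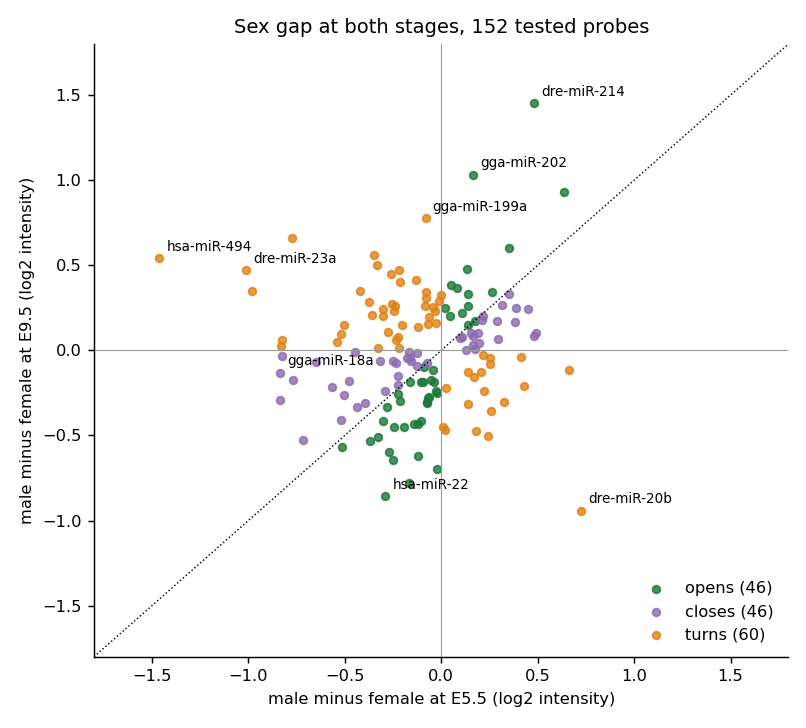
Each of the 152 tested probes is a point, with the male minus female log2 intensity at E5.5 on the x axis and at E9.5 on the y axis, coloured by class; the dotted line marks equal gaps. For 115 probes both gaps are under 0.5 in size, and dre-miR-20b and hsa-miR-494 lie farthest from the line.

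The direction of the changes depends on the scaling of the arrays. Toward males lay 82 of 152 changes, or 53.9%, with quantile normalisation, 64.5% with scaling to each array's 75th percentile and 28.3% with scaling to the median of the probes above the controls on all 14 arrays. The median change of all probes was 0.06, 0.21 and -0.25 in these 3 scalings, so each change below is best read against that median. Among the 32 probes above the controls on all 14 arrays, 71.9% of the changes lay toward males with quantile normalisation. Of their gaps, 8 opened, 11 closed and 13 turned. The share under the other scalings was not counted for these probes, so no direction is read from it. Of the 152 probes, 44 were above the controls on no array of at least 1 group, so for these at least 1 group mean is not well above background. The median change in size was 0.21 for opening, 0.13 for closing and 0.49 for turning gaps. A turning change is the sum of its gap sizes and the others are a difference. The larger value for turning gaps thus follows largely from the definition and is not a result.

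The gonad miRNA miR-202, which is enriched in vertebrate testis and ovary, opened toward males with both tested probes, and both changes lay toward males under each of the 3 scalings. The gga-miR-202 probe read 8.57, 6.91 and 7.60 on the Male E5.5 arrays (replicates 2, 3 and 6) and 6.99, 8.19 and 7.40 on the Female E5.5 arrays (replicates 3, 5 and 4). On the E9.5 arrays it read 8.11, 7.64, 8.42 and 7.81 in males and 6.83, 6.67, 7.12 and 7.22 in females. The sexes overlapped at E5.5 and were apart at E9.5. Other tested probes were apart too, such as hsa-miR-16 at E9.5 and dre-miR-30e at E5.5. The share of all tested probes with the sexes apart was not counted, here or below. Being apart therefore only describes a probe's values and is not read as a change in its gap. The gga-miR-202 gap was 0.17 ± 0.39 (SE) at E5.5 and 1.03 ± 0.34 at E9.5, a change of 0.87 ± 0.51 that did not pass the test. The dre-miR-202 probe, whose target differs at A11G (chicken base, position from the 5′ end, zebrafish base), had gaps of 0.64 ± 0.31 and 0.93 ± 0.27, a change of 0.29 ± 0.41. Without Male E5.5 replicate 2, the highest of the E5.5 arrays for both probes, the changes were 1.32 ± 0.44 and 0.68 ± 0.33, and without replicate 3 they were 0.47 ± 0.47 and 0.06 ± 0.40.

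The mesenchymal miRNAs miR-199 and miR-214, which in the mouse come from a shared transcript and in the chicken gene table of RefSeq (GRCg7b) lie beside each other as MIR199A2 and MIR214, had fitted changes toward males in 4 of 4 tested probes, with a median of 0.77. None passed the test. The dre-miR-214 probe opened, and the 3 miR-199 probes turned from a gap below 0. With scaling to the median of the probes above the controls on all arrays, the mmu-miR-199b change was -0.18 and the median was 0.50.

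The dre-miR-214 probe read 9.24, 7.92 and 7.80 in Male E5.5 and 7.88, 8.004 and 7.64 in Female E5.5. At E9.5 it read 8.44, 8.89, 8.96 and 7.68 in males and 6.86, 7.003, 7.27 and 7.03 in females. Every E9.5 male array was above every E9.5 female array, while at E5.5 only Male replicate 2 stood above the females' range. The gap went from 0.48 ± 0.37 to 1.45 ± 0.32, a change of 0.97 ± 0.49 with a 95% interval of -0.08 to 2.03. Without Male E5.5 replicate 2 the E5.5 gap was 0.02 and the change 1.45 ± 0.41, with a limma adjusted p of 0.242; without replicate 3 the change was 0.77 ± 0.51.

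The gga-miR-199a probe read 7.69, 8.13 and 7.63 in Male E5.5 and 7.38, 8.30 and 8.02 in Female E5.5. The E9.5 arrays gave 9.43, 10.24, 9.39 and 9.60 in males and 9.02, 9.15, 8.53 and 8.86 in females. The sexes overlapped at E5.5 and did not at E9.5, and both sexes were higher at E9.5. The gap went from -0.08 ± 0.29 to 0.78 ± 0.26, a change of 0.86 ± 0.39 (adjusted p 0.927 by limma). With the replicate number as a block the fitted E5.5 gap was 0.70 and the change 0.081 ± 0.46, so that the gap opened. In that block Female E5.5 rests on replicate 3, at 7.38, against 8.30 and 8.02 on the other Female E5.5 arrays. With the array number as a block the change was 1.41 ± 0.47. The opposite arm, dre-miR-199*, had gaps of -0.22 ± 0.24 and 0.47 ± 0.21 and a change of 0.69 ± 0.32. The mmu-miR-199b probe, 1 base from gga-miR-199a (C10U), was above the controls on 5 arrays, all of E9.5, and its change was 0.34 ± 0.39.

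The gap of miR-22 opened toward females with the hsa-miR-22 probe, whose change lay toward females under each of the 3 scalings. The hsa-miR-22 probe read 6.92, 7.40 and 6.83 in Male E5.5 and 6.82, 7.67 and 7.53 in Female E5.5. In the E9.5 males it read 7.38, 7.65, 7.32 and 7.16, and in the E9.5 females 8.06, 8.67, 8.07 and 8.14. The sexes overlapped at E5.5, and all E9.5 female arrays were above all E9.5 male arrays. The gap went from -0.29 ± 0.27 to -0.86 ± 0.24, a change of -0.57 ± 0.36. The dre-miR-22a probe, which differs at U11C, had a fitted change of -0.67 ± 0.31, but it was above the controls on 3 Female E9.5 arrays and on no array of the other groups, so it was tested only through the group where it is high and its value adds no support. With the array number as a block the changes of the hsa-miR-22 and dre-miR-22a probes were -0.01 and -0.29.

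**Figure D2:**
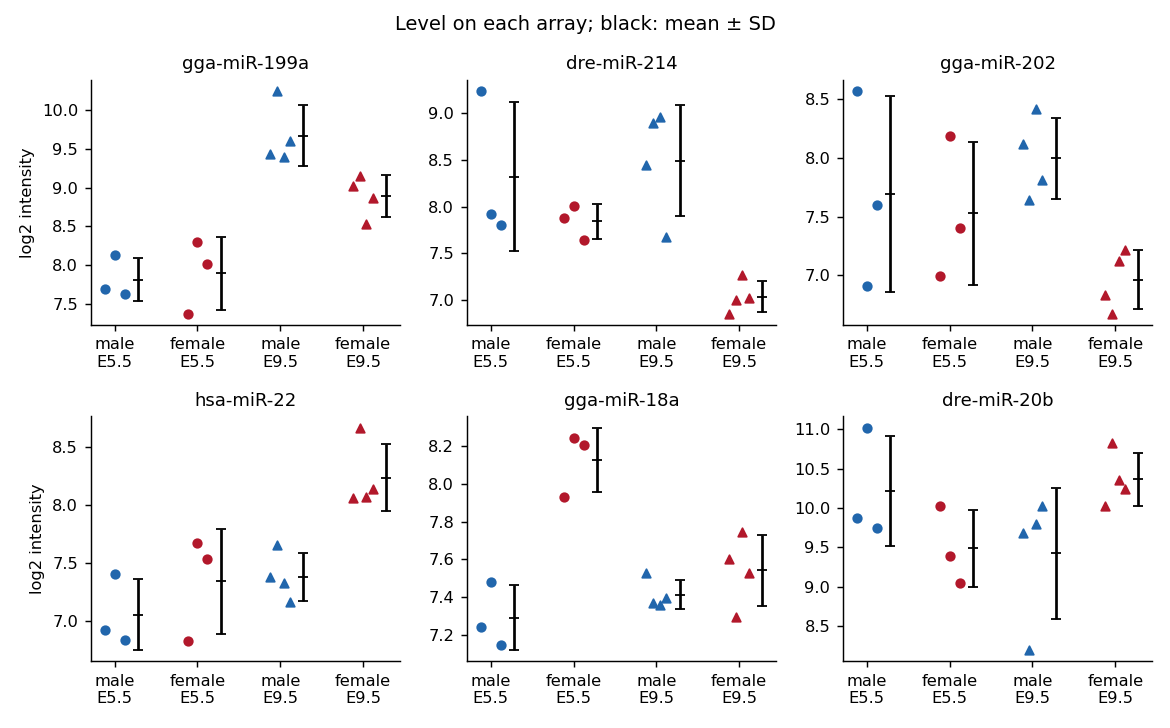
Log2 intensity on each array for 6 probes, with males in blue, females in red, E5.5 as circles and E9.5 as triangles; black bars are the mean ± SD of 3 arrays at E5.5 and 4 at E9.5. The sexes are apart at E9.5 for gga-miR-199a, dre-miR-214, gga-miR-202, hsa-miR-22 and, narrowly, dre-miR-20b, and at E5.5 for gga-miR-18a. Other tested probes not shown are apart too, and their share of all tested probes was not counted.

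The gap closed for gga-miR-18a, a member of the miR-17-92 cluster of growth-promoting miRNAs. The probe read 7.24, 7.48 and 7.15 in Male E5.5 and 7.93, 8.24 and 8.21 in Female E5.5. Its E9.5 values were 7.53, 7.37, 7.36 and 7.40 in males and 7.60, 7.30, 7.75 and 7.53 in females. The sexes were apart at E5.5 and overlapped at E9.5. The gap went from -0.84 ± 0.20 to -0.13 ± 0.17, a change of 0.70 ± 0.27 with an interval of 0.14 to 1.27 and an adjusted p of 0.927 by limma. It ranged from 0.62 to 0.81 when each array was left out in turn and from 0.24 to 1.04 over the other settings. Scaling to the median of the probes above the controls on all arrays gave 0.29, and the replicate number as a block gave 0.43 ± 0.46. The gga-miR-18b probe, 1 base away (A20U) and from the paralogous cluster, had a fitted change of 0.11 ± 0.33, from -0.52 to -0.41.

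The lowest p of all belonged to dre-miR-20b, which shares the seed of miR-17. It read 9.87, 11.02 and 9.75 in Male E5.5 and 10.02, 9.39 and 9.05 in Female E5.5. At E9.5 it read 9.68, 8.19, 9.80 and 10.02 in males and 10.03, 10.83, 10.36 and 10.24 in females. The E5.5 sexes overlapped, and at E9.5 the highest male array lay just under the lowest female array. The gap turned from 0.73 ± 0.45 to -0.94 ± 0.39, a change of -1.67 ± 0.60. Without Male E5.5 replicate 2 it was -1.86 ± 0.63 and without replicate 3 it was -1.27 ± 0.57.

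The gga-miR-20b probe (U12C against dre-miR-20b) had a gap near 0 at both stages. It read 10.24, 9.67 and 10.14 in Male E5.5, 9.61, 10.63 and 10.14 in Female E5.5, 10.03, 9.80, 9.75 and 9.87 in Male E9.5 and 9.95, 10.14, 9.95 and 10.14 in Female E9.5. Its gaps were -0.11 ± 0.26 and -0.18 ± 0.22, a change of -0.08 ± 0.34. The mmu-miR-20b and rno-miR-20b probes, which match the chicken sequence and are shorter, had fitted changes of 0.05 ± 0.28 and -0.61 ± 0.54. The difference between dre-miR-20b and the others was not tested.

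Over all tested probes, 91 pairs among 108 probes had targets with at most 1 mismatch. The changes had the same sign in 69 pairs and opposite signs in 22, and the median difference within a pair was 0.28. Among the 36 pairs with no mismatch, which differ only in length or offset, 29 had the same sign and the median difference was 0.21. The largest difference without a mismatch was 1.48, between dre-miR-23a and hsa-miR-23a, which differ by 1 base of length. Pairs share their arrays and many probes occur in several pairs.

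**Figure D3:**
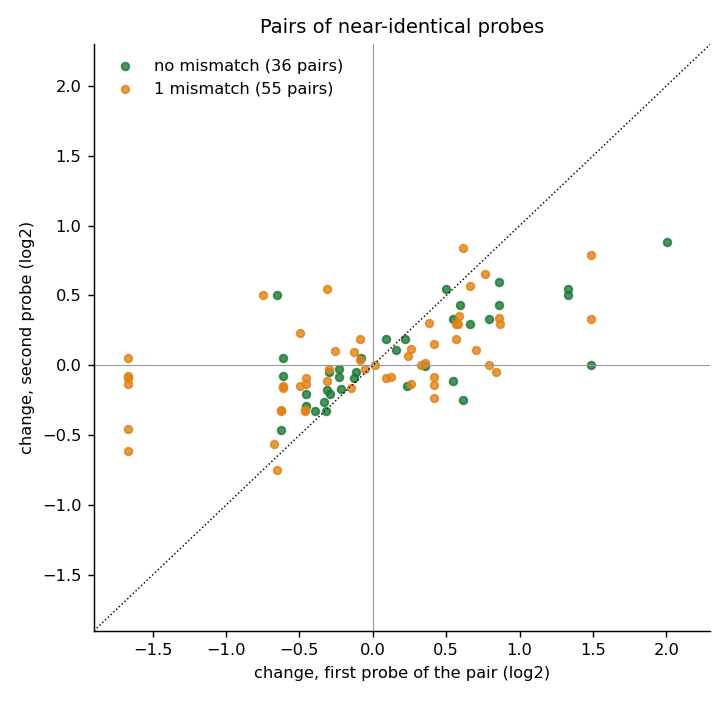
Each point is a pair of tested probes whose targets match (36 pairs) or differ by 1 base (55 pairs), with the change in sex gap (log2) of the first probe on the x axis and of the second on the y axis; the dotted line marks equality. The column of points at -1.67 is dre-miR-20b against its relatives.

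The dre-miR-23a probe turned from -1.01 ± 0.62 to 0.47 ± 0.53, a change of 1.48 ± 0.81. It read 7.41, 6.17 and 8.62 in Male E5.5, and 6.29 on Female E9.5 replicate 1-2 against 8.44 to 8.82 on the other Female E9.5 arrays. The hsa-miR-23a probe had gaps of -0.07 at both stages and a change of 0.00 ± 0.35. With the array number as a block the dre-miR-23a change was -0.47.

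The miR-26 probes turned in opposite directions. The fitted change of gga-miR-26a was -0.66 ± 0.37, from 0.18 to -0.47, and that of dre-miR-26b -0.75 ± 0.46, from 0.24 to -0.50. The dre-miR-26a probe, which matches gga-miR-26a with 1 base more, had a fitted change of 0.50 ± 0.45, from -0.24 to 0.26. It read 8.32, 9.39 and 10.03 in Male E5.5, with the lowest value on replicate 2. Without that array the fitted changes were 0.04 ± 0.35 for dre-miR-26a, -0.77 ± 0.39 for gga-miR-26a and -1.22 ± 0.36 for dre-miR-26b. None of the 3 passed the test.

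The miR-221 and miR-222 probes, whose miRNAs repress the receptor KIT in human cells, had fitted changes toward males in 4 of 4 tested probes. The gga-miR-222a probe read 8.41, 8.21 and 8.57 in Male E5.5, 8.38, 9.06 and 9.01 in Female E5.5, 8.41, 8.92, 8.35 and 8.74 in Male E9.5 and 8.06, 8.27, 7.95 and 8.76 in Female E9.5. The sexes overlapped at both stages. Its gap turned from -0.42 ± 0.27 to 0.35 ± 0.23, a change of 0.77 ± 0.36 (0.25 ± 0.50 with the replicate number as a block), and gga-miR-222b, which differs at G2A inside the seed, had a fitted change of 0.65 ± 0.40. The changes of gga-miR-221 and mmu-miR-221 were 0.16 ± 0.39 and 0.11 ± 0.38. With scaling to the median of the probes above the controls on all arrays, 2 of the 4 lay toward males.

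Among the 4 miR-181 probes, 3 turned toward males. The gga-miR-181b change was 0.84 ± 0.43, that of dre-miR-181c 0.61 ± 0.30 and that of gga-miR-181a 0.23 ± 0.34. The hsa-miR-181d change was -0.05 ± 0.28. Without Male E5.5 replicate 2, the gga-miR-181a change was -0.02 and 2 of the 4 lay toward males.

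**Figure D4:**
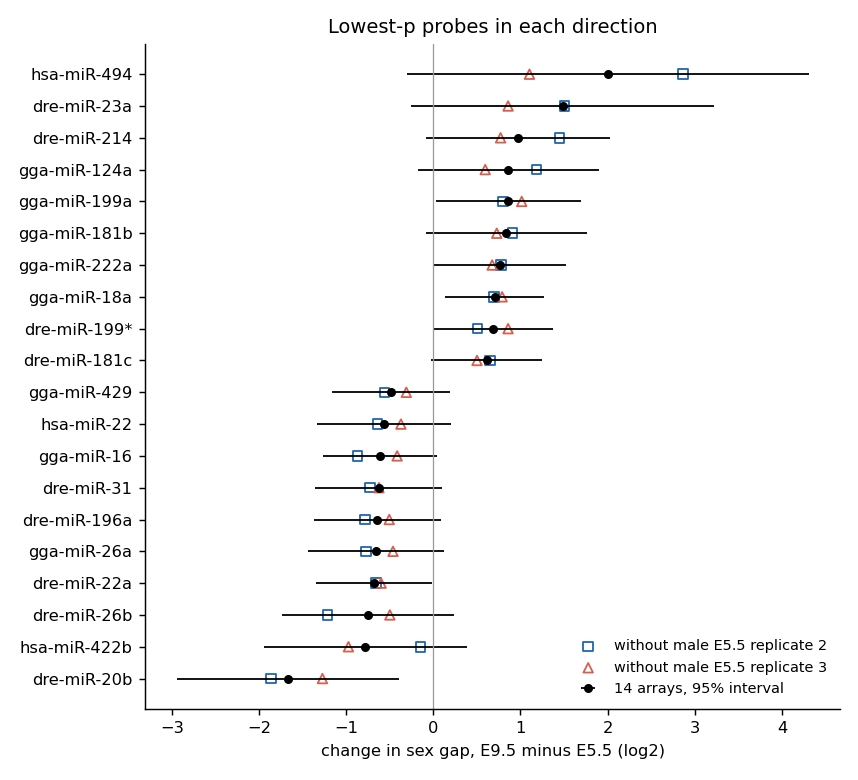
Change in sex gap (log2, x axis) for the 10 probes of lowest p in each direction (y axis), with the 95% interval over 14 arrays in black and the value without Male E5.5 replicate 2 (squares) or 3 (triangles). The intervals of 14 of the 20 probes include 0; hsa-miR-494 has the widest interval, from -0.30 to 4.31.

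The largest fitted shift toward males was that of hsa-miR-494, named for a miRNA of a gene cluster of placental mammals. It read 10.51, 7.08 and 9.02 in Male E5.5 and 10.36, 9.80 and 10.83 in Female E5.5, with the 3 males spread over more than 3 log2 units. At E9.5 it read 8.30, 7.30, 8.86 and 9.80 in males and 8.47, 6.39, 9.28 and 7.94 in females. The sexes overlapped at both stages. Its change was 2.01 ± 1.08, and that of mmu-miR-494, which matches it and is shorter, was 0.88 ± 0.79. With the array number as a block the hsa-miR-494 change was 0.08.

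Leaving out Male E5.5 replicate 2 moved the count of probes at an unadjusted limma p under 0.05 from 6 to 21 of 151, with 0 called and a lowest adjusted p of 0.242. Leaving out replicate 3 gave 4 such probes and a lowest adjusted p of 0.949. The lowest p without replicate 2 belonged to dre-miR-214, followed by dre-miR-26b. The gga-miR-16 probe, of a family that restrains the cell cycle, then had a fitted change of -0.87 ± 0.27, against -0.61 ± 0.31 with all arrays, and dre-miR-92a one of -0.84 ± 0.32 against -0.17 ± 0.54. Whether that array's small number of detected probes sets these values was not tested.

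The miR-15/16 family had fitted changes toward females in 5 of 6 tested probes, with a median of -0.20, and in 5 and 6 of the 6 under the 75th percentile and median scalings. The gga-miR-16 probe had the lowest p, and its gap turned from 0.26 ± 0.23 to -0.35 ± 0.20. With the array number as a block, 3 of the 6 lay toward females. The gga-miR-15a, dre-miR-16b and dre-miR-15b probes were above the controls on no E5.5 array, which limits their E5.5 gaps and changes. At E9.5 gga-miR-15a was above them on 1 male and 3 female arrays. The miR-17-92 miRNAs and their paralogs were the largest list, with 21 tested probes of 35: 5 opened, 11 closed and 5 turned, and 9 lay toward males. Under the 2 other scalings, 16 and 3 of the 21 lay toward males, so no direction of that list holds across scalings.

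The list of the let-7 family, which acts in developmental timing, had 9 tested probes of 18, of which 3 opened, 2 closed and 4 turned. Its median change was -0.08, with a range from -0.34 for dre-let-7i to 0.42 for gga-let-7c. The gga-let-7c probe turned from -0.08 ± 0.28 to 0.34 ± 0.24, and gga-let-7a, 1 base away (G19A), opened toward females from -0.07 ± 0.25 to -0.30 ± 0.22. The gga-let-7b gap was 0.39 ± 0.26 at E5.5 and 0.25 ± 0.23 at E9.5. The gga-let-7b, mmu-let-7a, dre-let-7d, dre-let-7i and gga-let-7i probes were above the controls on no E5.5 array. Their E5.5 means are thus not well above background, which limits their E5.5 gaps, changes and classes. No let-7 probe passed the test, and 3 of the 9 lay toward males, against 3 and 0 under the 75th percentile and median scalings. The 9 include mmu-let-7d*, the opposite strand, with the seed UAUACGA. Of the 8 probes with the let-7 seed GAGGUAG, 2 lay toward males, against 2 and 0 under these scalings. In the fit with the array number as a block 6 of the 9 lay toward males, with a median of 0.19.

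The miRNAs of the Hox clusters, miR-10 and miR-196, lay toward females in 4 of 4 tested probes, with dre-miR-196a at -0.64 ± 0.34 and a median of -0.18. With the array number as a block 2 of the 4 did. The star strand of miR-140, a cartilage miRNA in mammals, turned toward males in 3 of 3 probes, with changes of 1.33 ± 0.88 (rno-miR-140*), 0.55 ± 0.55 (dre-miR-140*) and 0.50 ± 0.46 (mmu-miR-140*). Of these, 2 of 3 lay toward males with the array number as a block, where the rno-miR-140* change was -0.31. The miR-30 family lay toward males in 5 of 6 probes with a median of 0.24, and in 3 of 6 with scaling to the median of the probes above the controls on all arrays. Only 2 of the 6 did with the array number as a block, with a median of -0.093. The miR-130 and miR-301 probes had a median of 0.00 over 7 probes, and miR-99, miR-100 and miR-125 a median of -0.05 over 6. The tested candidate gga_candidate_dre_130c-1, which the lists leave out, turned toward males with a change of 1.43 ± 0.99.

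In the 3 scalings alike, of 7 tested probes for miR-23b, miR-24 and miR-31, whose chicken genes MIR23B and MIR31 lie on the Z chromosome in the RefSeq table, 5 lay toward females. The 4 miR-31 probes had fitted changes of -0.63 ± 0.34 (dre), -0.46 ± 0.38 (gga), -0.33 ± 0.36 (mmu) and -0.32 ± 0.29 (hsa). The gga-miR-31 probe read 8.22, 8.56 and 8.77 in Male E5.5 and 7.76, 8.72 and 8.40 in Female E5.5. At E9.5 it read 7.83, 7.88, 8.19 and 7.36 in males and 7.76, 8.11, 8.05 and 8.30 in females. The sexes overlapped at both stages. The gga-miR-23b change was 0.33 ± 0.36 and that of gga-miR-24 lay toward females; none passed the test.

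Markers of other cell types also had fitted changes. No probe of miR-9 (neuronal list) or miR-144 (red blood cell list) was above the controls on any array. The neuronal miR-124 probes lay toward males in 3 of 3, with gga-miR-124a at 0.86 ± 0.49, from a gap of -0.83 ± 0.37 to 0.03 ± 0.32, and at 1.48 ± 0.44 with the replicate number as a block. The red blood cell miRNA miR-451 opened toward females in 2 of 2 probes, with changes of -0.39 ± 0.44 (dre-miR-451) and -0.33 ± 0.55 (hsa-miR-451). At E5.5 dre-miR-451 was above the controls on 1 male and 0 female arrays, and hsa-miR-451 on 1 of each sex. Their E5.5 means are thus not well above background, which limits the E5.5 gaps, changes and classes of these 2 probes. Toward females lay 1 of the 2 with the array number as a block and 1 of the 2 without Male E5.5 replicate 3, with medians of 0.014 and -0.065. The smooth muscle miRNAs miR-143 and miR-145 lay toward males in 3 of 4 probes with a median of 0.34, in 2 of 4 under the median scaling, and in 1 of 4 without Male E5.5 replicate 2. The epithelial gga-miR-429 had a fitted change of -0.48 ± 0.32 and was above the controls on 4 arrays, 3 of them Female E9.5. The other tested epithelial probe, gga-miR-205b, closed with a fitted change of -0.03 ± 0.43. The endothelial gga-miR-126 had a fitted change of -0.21 ± 0.46. The pluripotent and germ cell list (miR-302 and miR-290 to miR-295) had 2 tested probes of 24 on the array. These were mmu-miR-290 at 0.53 ± 0.35 and mmu-miR-292-5p at 0.29 ± 0.38, both toward males under each of the 3 scalings. Both are named for mouse miRNAs, and no miR-302 probe was tested. Which chicken RNA they bind is not known here, so they are not read as markers of germ cells. No marker passed the test, and the part of these cell types in the other changes was not tested.

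**Figure D5:**
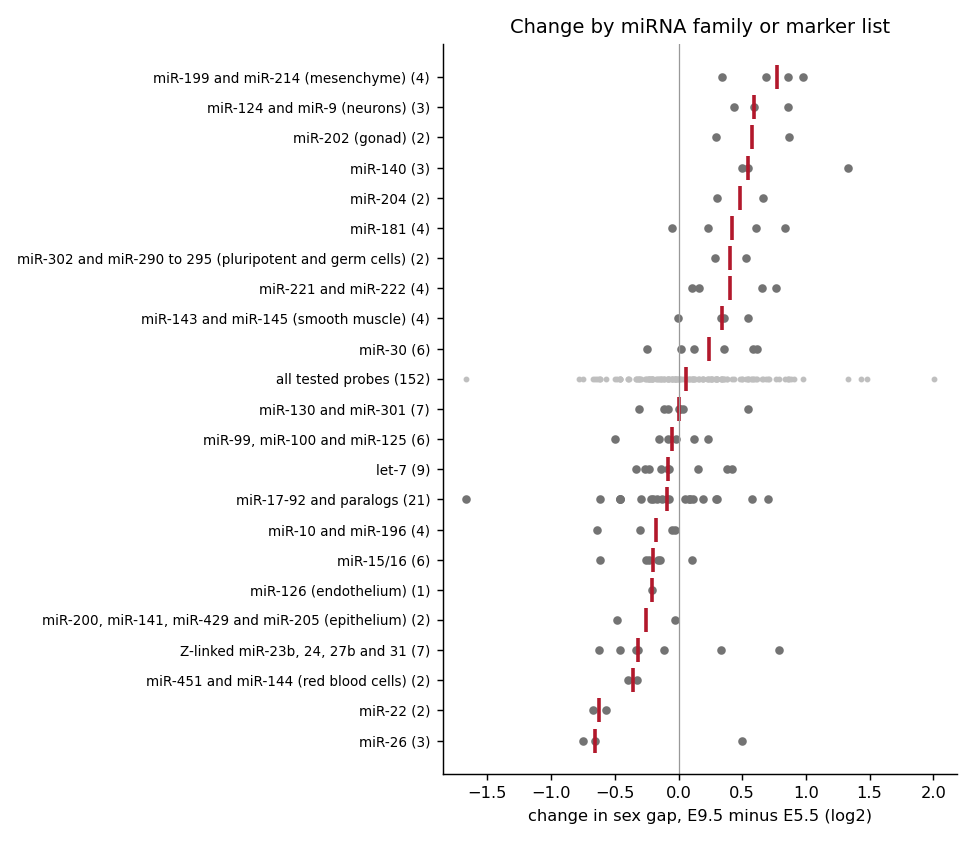
Change in sex gap (log2, x axis) of each tested probe (grey points) in each family or marker list (y axis, number of tested probes in parentheses), with the median as a red bar and all 152 tested probes for comparison. Medians run from -0.66 for miR-26 to 0.77 for miR-199 and miR-214, around 0.06 for all probes.

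The family and marker lists leave out the array maker's candidates. Among the probes they do hold, none of the miR-21, miR-224 and miR-383 list (6 on the array) was bright enough to be tested. The same held for the miR-34 and miR-449 list (9). Of the candidates, gga_candidate_dre_21-1 was tested with a change of -0.05 ± 0.50 and gga_candidate_hsa_449b with one of 0.26 ± 0.32. Seeds shared by at least 3 tested probes numbered 16. The seeds of miR-23 (UCACAUU, 4 probes), of miR-204 and miR-211 (UCCCUUU, 4) and of miR-19 (GUGCAAA, 3) had all members toward males, but 3, 2 and 1 of them under the median scaling. The seed of miR-221 and miR-222a (GCUACAU) had 3 of 3 toward males, but 1 under the median scaling. That of miR-92 and miR-363 (AUUGCAC) had all 5 toward females, but 1 of 5 under the 75th percentile scaling. Under each of the 3 scalings, the miR-140 star seed (ACCACAG) had 3 of 3 toward males and the miR-10 seed (ACCCUGU) 3 of 3 toward females. With the array number as a block, not all of the miR-140 star probes lay toward males and not all of the miR-10 probes toward females. The dre-miR-10a and dre-miR-10b changes were also small, at -0.05 ± 0.44 and -0.02 ± 0.33. The seed AAAGUGC of miR-17 and miR-20 had 4 probes toward males and 6 toward females, against 7 and 1 of its 10 toward males under the 2 other scalings. The dye binds guanine, per the labels' protocols. Over the 152 probes the change correlated with the number of guanines in the target at r = -0.112 and with the percentage of G and C at r = 0.062, both given as descriptions over probes that share their arrays.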

How the data were processed

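Small RNA from gonads carried a guanine-binding Cy5 label and was hybridised in one colour, per the labels' protocols. The authors deposited, per the file headers, the median foreground intensity of each probe, less the spots that the labels list as excluded; background values were not used here. The authors' series table of intensity values (column medians 2507 to 3673) served as an alternative. Of the 18 arrays of chip 4011845, 14 were used.

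Intensities were corrected with normexp (offset 50) over all spots, converted to log2, and the 657 mature probes were quantile-normalised across the 14 arrays, with excluded spots missing. Because the brightest probes take values by rank, their spread is compressed. A probe was tested when on at least 3 arrays it exceeded the 95th percentile of that array's 7 negative controls, with at least 2 values per group. The interaction of sex and stage was tested with limma 3.58.1 in R 4.3.3, with Benjamini-Hochberg adjustment over 152 probes and a threshold of 0.05. The fit was checked on simulated arrays in which a probe had the same spread in every group. That check therefore does not cover the larger spread of the Male E5.5 arrays. The number of arrays limits the precision.

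Named probes were the 10 lowest p in each direction, the 5 lowest in each direction among probes above the controls on all arrays, all tested miR-202, miR-214, miR-199, miR-22 and let-7 probes, and the same miRNA under other species' names; lists give their counts, and probes outside the rule (such as the miR-140, miR-221 and miR-451 probes, gga-miR-18b and gga-miR-181a) were named after their values were seen. The members and lists were chosen with earlier results of these data known. Alternatives covered background, scaling, filters, blocks, exposure, array sets, weights, mismatch subtraction and leaving out each array.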

Additional observations from a re-analysis of the deposited data

Results flagged for a closer look

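Over the named probes 92 groups of 4 arrays at E9.5 were screened, and 7 values stood apart from the other 3 arrays of their group by Dixon's ratio; chance marks about 1 in 20 groups. Female E9.5 replicate 1-2 read 6.29 for dre-miR-23a, where the nearest array read 8.44. The same array read 8.67 for hsa-miR-22, with 8.14 nearest, and 9.75 for dre-miR-92a, with 9.44 nearest. Male E9.5 replicate 3 read 6.44 for hsa-miR-422b, with 6.77 nearest, and 7.30 for gga-let-7i, with 6.74 nearest. Male E9.5 replicate 2 read 7.36 for dre-let-7d, with 7.02 nearest, and 11.02 for gga-miR-17-5p, with 10.83 nearest; this last probe is among the brightest, and its values are set by rank.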

How the results depend on the processing

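No probe was called under any of the 31 alternatives, which gave 2 to 25 probes at an unadjusted limma p under 0.05 (25 of 657 with no filter on dim probes). With no filter, 142 gaps opened, 219 closed and 296 turned; over probes above the controls on all 14 arrays 8, 11 and 13 did, as fewer probes were tested; after subtraction of the mismatch partner 29 closed. Deviations of same-numbered arrays correlated at 0.107 to 0.440 for the 4 pairs at E9.5 and at 0.048 for the single E5.5 pair. Arrays with different numbers were not compared in this way, so these values do not show a pairing. An E5.5 array whose number occurs once adds nothing to the change in the replicate block. Female E5.5 thus rests on replicate 3 alone in that block. With it hsa-miR-498 was at 1.91 ± 0.49, against 0.91 ± 0.54 without, and hsa-miR-22 at -1.26 ± 0.47; 12 probes had an unadjusted p under 0.05, the lowest adjusted p was 0.301, and these changed sign: gga-let-7c -0.0052, mmu-let-7d* -0.078, mmu-let-7a 0.11, hsa-let-7d 0.45, mmu-miR-20b -0.11 and hsa-miR-23a -0.44 (-0.046 as a random block).

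The cause of these and the following changes of sign was not tested. The 75th percentile scaling gave gga-miR-17-5p 0.20, dre-miR-92a 0.44 and gga-miR-20b 0.32. Scaling to the median of probes above the controls on all arrays gave gga-let-7c -0.019, mmu-miR-199b -0.18, mmu-let-7d* -0.13, dre-let-7d -0.26, mmu-miR-20b -0.040 and hsa-miR-23a -0.21. The array number as a block gave dre-miR-23a -0.47, mmu-miR-199b -0.23, gga-let-7b 0.19, dre-miR-92a 0.014, mmu-let-7a 0.26, hsa-let-7d 0.64 and mmu-miR-20b -0.35. Mismatch subtraction gave gga-miR-17-5p 0.40, gga-let-7b 0.033, dre-miR-92a 0.89 and gga-miR-20b 0.20. The series table gave hsa-miR-16 0.23, dre-miR-92a 0.23, hsa-let-7d 0.42 and hsa-miR-23a -0.10. All 25 arrays with the chip as a term gave dre-let-7d -0.064, mmu-miR-20b -0.11 and hsa-miR-23a -0.20. The hsa-miR-23a change was -0.090 with exposure as a covariate and -0.057 with arrays 1-1 and 1-2 averaged, and array weights gave gga-miR-20b 0.000622.

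Leaving out 1 array at a time moved mmu-let-7d* from -0.085 to 0.86, hsa-miR-16 from -0.35 to 0.14, dre-miR-92a from -0.84 to 0.37, mmu-let-7a from -0.24 to 0.073, gga-miR-20b from -0.33 to 0.19, hsa-let-7d from -0.40 to 0.17, mmu-miR-20b from -0.093 to 0.13 and hsa-miR-23a from -0.19 to 0.24. The other probes chosen by the naming rule kept their sign in each of these fits. Not all probes named afterwards did: gga-miR-181a was at -0.02 without Male E5.5 replicate 2, and hsa-miR-451 at 0.0038 without Male E5.5 replicate 3. The number of arrays limits the precision.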
